A study of Mus musculus with 10 samples.

Results

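Long noncoding RNAs (lncRNAs) with known roles in the developing brain were compared between 2 populations of embryonic mouse brain cells. The list held 10 names, *Miat*, *Malat1*, *Neat1*, *Sox2ot*, *Dlx6os1*, *Peg13*, *Rmst*, *Pantr1*, *Gas5* and *Snhg11*, and a gene was a member if its symbol was in the counts table. Of these, 9 were found among the 14300 genes of the table, and *Neat1*, the RNA scaffold of paraspeckles, was not analysed here. The table holds 907 genes that GENCODE M21 classes as lncRNAs, among them every member that was found except *Snhg11*, which that release lists as protein coding. *Dlx6os1* was taken by its identifier, ENSMUSG00000090063, because a second identifier carries the same symbol.

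The embryos came from C57BL/6J *Grem1creERT; Rosa26LSLTdtomato* mice, and every embryo of both groups had received tamoxifen. Their mothers were given 6 mg and tissue was taken 24 h later, at embryonic day E14.5. Cre driven by *Grem1* sequences had switched on the reporter in the TdTomato+ cells, which the labels call Grem1 positive, while the TdTomato- cells were all other live cells of the same dissection. TdTomato- is therefore a mixture and not a single cell type, and the reporter marks past as well as present activity of the Cre line. The labels name the tissue as brain, and the methods of the study describe dorsal telencephalon freed of meninges. There were 5 TdTomato+ and 5 TdTomato- libraries, 1 of each from each of the mice numbered 2 to 6.

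Long noncoding RNAs are transcripts longer than small RNAs that are not translated into a known protein. Some stay in the nucleus and gather splicing factors there, as *Malat1* does in nuclear speckles and *Miat* in separate foci. Others lie beside or across genes for transcription factors, and their transcripts or their transcription can act on those neighbours, as described for *Dlx6os1* (also called Evf2) at the *Dlx5* and *Dlx6* genes. Others again carry small nucleolar RNAs (snoRNAs) in their introns, which are cut out and guide the chemical modification of ribosomal RNA, while the spliced host RNA is often short-lived.

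Sequence features of several members are printed here, and their part in the measured levels was not tested. *Dlx6os1* showed the strongest difference between the populations, and RefSeq gives it 2 promoters (250 bases before to 50 after the start, GRCm38.p6, minus strand), at chr6:6869484-6869783 and chr6:6861634-6861933. Capitals mark TAATTA, the core that homeodomain factors such as the Dlx proteins recognise, which reads the same on both strands. It occurs at 2 places in the first and at 1 in the second. Of the 32851 promoters of this length, 5.29% held it and 0.49% held it at 2 or more places, and a match in letters is not evidence of binding.
Dlx6os1 promoter A: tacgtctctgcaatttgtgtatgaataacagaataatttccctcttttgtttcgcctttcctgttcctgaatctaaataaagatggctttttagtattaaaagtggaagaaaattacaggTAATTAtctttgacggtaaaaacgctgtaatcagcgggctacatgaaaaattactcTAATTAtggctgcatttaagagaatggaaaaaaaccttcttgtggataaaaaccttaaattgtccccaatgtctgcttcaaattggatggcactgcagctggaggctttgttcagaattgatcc
Dlx6os1 promoter B: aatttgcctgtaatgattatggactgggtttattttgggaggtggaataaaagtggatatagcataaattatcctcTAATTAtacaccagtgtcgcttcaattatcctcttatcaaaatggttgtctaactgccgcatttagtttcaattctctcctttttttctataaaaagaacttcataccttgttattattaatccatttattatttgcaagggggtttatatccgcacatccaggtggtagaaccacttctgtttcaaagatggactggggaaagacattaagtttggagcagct

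*Gas5* has 2 RefSeq promoters, and the one at chr1:161034916-161035215 (plus strand) gives a transcript that begins with a pyrimidine run, in capitals, preceded by a TATATA element that ends 23 bases before the start, also in capitals. The other promoter lacks such a start. Transcripts that begin with a C and 4 or more further pyrimidines are known as terminal oligopyrimidine transcripts, the class that holds the ribosomal protein messages. Such a start was present in at least 1 promoter of 813 of the 27025 genes with an entry (3.01%), and of 2 of the 13 snoRNA host genes of the table with an entry, *Gas5* and *Snhg8*.
Gas5 promoter: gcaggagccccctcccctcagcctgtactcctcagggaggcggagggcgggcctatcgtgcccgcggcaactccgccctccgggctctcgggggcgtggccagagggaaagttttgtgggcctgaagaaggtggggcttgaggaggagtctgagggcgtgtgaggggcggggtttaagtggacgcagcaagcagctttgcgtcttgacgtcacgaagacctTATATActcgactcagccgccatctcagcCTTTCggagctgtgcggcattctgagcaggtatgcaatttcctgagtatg

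*Miat* carries copies of ACTAAC, which resembles the branch point of introns and is the element that splicing factor 1 (encoded by *Sf1*) binds in this RNA. The longest GENCODE M21 transcript, of 9163 bases, holds it on the sense strand at 11 places, 6 of them as TACTAAC, against a match at any place in the longest transcript of 30.8% of the 14271 annotated genes of the table and at 11 or more places in 5 of them. The window chr5:112217310-112217459 (GRCm38, minus strand), bases 4932 to 5081 of that transcript, holds 4 of the copies, in capitals.
Miat repeats: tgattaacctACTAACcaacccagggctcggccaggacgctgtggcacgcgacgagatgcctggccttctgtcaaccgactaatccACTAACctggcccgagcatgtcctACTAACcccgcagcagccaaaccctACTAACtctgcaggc

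*Malat1* ends in no poly(A) tail. RNase P cuts its precursor behind an A-rich stretch that pairs with 2 U-rich stretches, and the libraries were made from polyadenylated RNA. How the measured level depends on this was not tested. Runs of 5 or more T or A are in capitals in the 110 bases at chr19:5795978-5796087 (GRCm38, minus strand). The run of A is 12 bases long, and the GENCODE transcript goes on for 298 bases behind it.
Malat1 3-prime end: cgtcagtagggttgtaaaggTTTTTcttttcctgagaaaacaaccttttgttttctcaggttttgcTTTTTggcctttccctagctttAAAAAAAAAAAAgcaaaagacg

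*Rmst* contains the gene of a miRNA, *Mir135a-2*, on its own strand. The mature forms from RefSeq (GRCm38.p6) lie at chr10:92072141-92072163 and chr10:92072104-92072124, and capitals mark the seed, bases 2 to 8.
mmu-miR-135a-5p: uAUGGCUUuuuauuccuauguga
mmu-miR-135a-2-3p: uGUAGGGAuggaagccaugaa

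The deposited table held 23429034 to 27286180 counts per library. Values below are CPM (a library's counts scaled to a common total), adjusted by the trimmed mean of M values (TMM). A gene is called higher or lower at an adjusted p of 0.05 or less (edgeR quasi-likelihood test, mouse as a block, Benjamini-Hochberg over 14300 genes), and is termed a DEG if its absolute log2 fold change (TdTomato+ over TdTomato-) is also 2 or more. Marker genes of the cell types that the TdTomato- gate could hold moved with the groups. All 9 radial glia markers were lower in TdTomato+ cells (summed level 137 to 193 CPM against 1940 to 2340 CPM), as were all 5 of intermediate progenitors, all 8 of subpallial GABAergic cells (53.4 to 80.6 against 1600 to 2020 CPM), 5 of 5 in the table for microglia (0.68 to 1.63 against 11.4 to 55.6 CPM) and 5 of 5 for erythroid cells (1.18 to 25.7 against 74.2 to 258 CPM). Of 6 markers of deep-layer neurons, 5 were higher (4770 to 5820 against 1240 to 1680 CPM). Endothelium gave 1 lower and 2 not called of the 3 markers in the table, and meninges with pericytes 3 lower and 1 not called of 4. Of 12 mitochondrially encoded genes 7 are in the table, and 3 were higher (*mt-Cytb*, *mt-Nd4* and *mt-Co1*, at log2 fold changes of 0.55, 0.54 and 0.29), 0 lower and 4 not called, with summed levels of 16000 to 19700 CPM in TdTomato+ and 13200 to 15000 CPM in TdTomato- libraries. The part of all these markers in the results below was not tested. No marker in the table was at 0 in all TdTomato+ libraries. The microglia markers *Cx3cr1*, *C1qa*, *C1qb* and *Tyrobp* and the meningeal marker *Col1a2* had TdTomato+ means of 0.07 to 0.19 CPM. Genes entered the table at 0.5 CPM in at least 5 libraries. These markers could therefore enter only through the TdTomato- libraries, and the filter fixed their direction. In such bulk libraries a larger share of cells that express a gene and more RNA of it per cell cannot be told apart.

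*Malat1*, *Peg13* and *Gas5* were higher in TdTomato+ cells, *Dlx6os1*, *Pantr1*, *Sox2ot*, *Rmst* and *Snhg11* were lower, and *Miat* was not called. Over all genes, 37.9% were called higher and 39.4% lower, so that 3 and 5 of 9 are counts near what the table as a whole gives. Among the 907 lncRNA genes 43.8% were higher and 26.6% lower. As DEGs, 4 of 9 members were lower and 0 higher, beside 9.74% and 3.2% of all genes and 10.3% and 6.39% of lncRNA genes. The 5 libraries of one population did not overlap the 5 of the other for 1 member that was higher and 4 that were lower, where 29.1% and 32.4% of all genes did so. The median log2 fold change was −0.67 over the members, −0.006 over all genes and 0.28 over lncRNA genes.

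**Figure D1:**
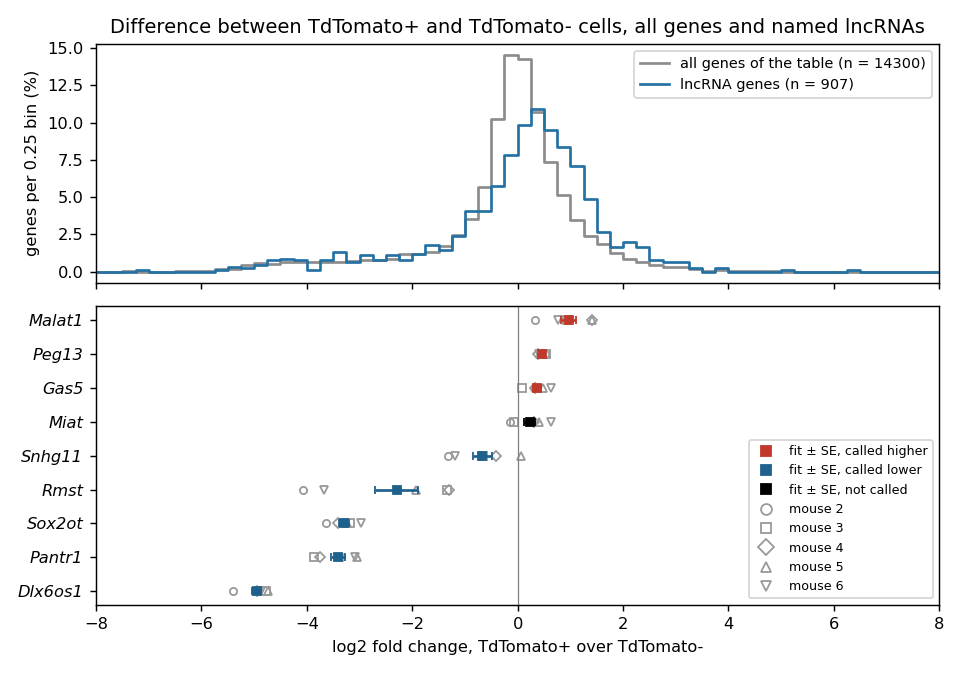
The upper panel plots the share of genes (%) in bins of 0.25 of the log2 fold change, TdTomato+ over TdTomato-, for all 14300 genes and for the 907 lncRNA genes. The lower panel gives each named lncRNA on the same axis, with the fitted value and its SE as a square and the 5 mice as open symbols, and *Dlx6os1*, *Pantr1*, *Sox2ot* and *Rmst* have fitted values to the left of −2 while the fitted values of the 3 called higher stay below 1.

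*Malat1* (chr19:5795690-5802672, minus strand), an abundant nuclear RNA of splicing speckles, was higher in TdTomato+ cells in 5 of 5 mice. In mice 2, 3, 4, 5 and 6 it stood at 436, 316, 283, 267 and 304 CPM in TdTomato+ cells and at 346, 165, 106, 101 and 178 CPM in TdTomato- cells. Mouse 2 was the highest of its population on both sides, and its TdTomato- library lay above 4 of the 5 TdTomato+ libraries, so that the groups overlapped. The log2 fold change was 0.97 (SE 0.14, edgeR adjusted p = 0.00022), and the means were 321 ± 66.9 and 179 ± 99.2 CPM (SD, n = 5). Across the mice the log2 ratio ran from 0.34 in mouse 2 to 1.41 in mouse 4. A total of 6.49% of its exonic bases is shared with a gene on the opposite strand and 1.23% with one on its own.

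The proteins that gather with *Malat1* in nuclear speckles were described from a list of 20 genes, all in the table. Of these, 14 were lower in TdTomato+ cells, 1 was higher and 5 were not called, with a median log2 fold change of −0.39. The shares over all genes were 39.4% lower and 37.9% higher. *Srsf2*, *Srsf1* and *Srsf4*, which encode serine- and arginine-rich splicing factors, had the lowest values at −0.86, −0.67 and −0.65 (edgeR adjusted p = 1.4e-07, 4.6e-06 and 6e-07). *Clk1*, a kinase that phosphorylates such factors, was the gene that was higher, at 0.33 (SE 0.08, edgeR adjusted p = 0.0062). The genes not called were the speckle scaffolds *Son* (0.008) and *Srrm2* (−0.13), besides *Sf3b1* (0.01), *Srsf11* (−0.04) and *Prpf4b* (−0.08).

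Proteins of paraspeckles, the bodies built on *Neat1*, gave 10 lower, 3 higher and 3 not called of 16 genes, all in the table, with a median of −0.26. Beside these counts, 39.4% of all genes were lower and 37.9% higher. The lowest were *Hnrnpk* (−0.56), *Taf15* (−0.53) and *Nudt21* (−0.50), and the 3 that were higher were *Matr3* (0.54, SE 0.07, edgeR adjusted p = 5.3e-05), *Fam98a* (0.26) and *Smarca4* (0.16). The core proteins *Nono* and *Sfpq* were lower by small amounts, with log2 fold changes of −0.23 and −0.29, and *Pspc1*, *Cpsf6* and *Dazap1* were not called, at 0.07, −0.08 and 0.02.

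*Miat* (chr5:112213228-112229395, minus strand), which is also known as Gomafu and stays in the nucleus of neurons, had the highest mean level per kb of the 9 in both populations, with a range that overlapped that of *Peg13*. Its libraries gave 1060, 695, 768, 714 and 861 CPM in TdTomato+ cells and 1170, 731, 616, 541 and 552 CPM in TdTomato- cells of mice 2 to 6. Mouse 2 was again the highest on both sides. The populations overlapped, with TdTomato+ above TdTomato- in mice 4, 5 and 6 and below it in mice 2 and 3. The log2 fold change of 0.23 (SE 0.11) was not called (edgeR adjusted p = 0.076), and it was called without mouse 2 (0.32, edgeR adjusted p = 0.019), without mouse 3 (0.30, adjusted p = 0.036) and with DESeq2 (0.23, adjusted p = 0.017). It was not called under the other alternatives, among them library size alone (0.05, adjusted p = 0.69), no mouse block (0.18, adjusted p = 0.42) and without mouse 6 (0.13, adjusted p = 0.23). The lncRNA *Gm26953* runs across 24.3% of the exonic bases of *Miat* on the other strand and was not called either (0.22, SE 0.16, edgeR adjusted p = 0.23).

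Of 4 factors listed as binding *Miat*, 3 are in the table. *Celf3*, a neuronal RNA-binding protein, was higher at 559 ± 34.5 against 406 ± 10.8 CPM (log2 fold change 0.46, SE 0.04, edgeR adjusted p = 4.5e-06). *Sf1*, whose protein binds the ACTAAC copies printed above, was lower at 354 ± 13.8 against 496 ± 17.2 CPM (−0.49, SE 0.04, adjusted p = 3.2e-06), and *Srsf1* was the other that was lower.

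**Figure D2:**
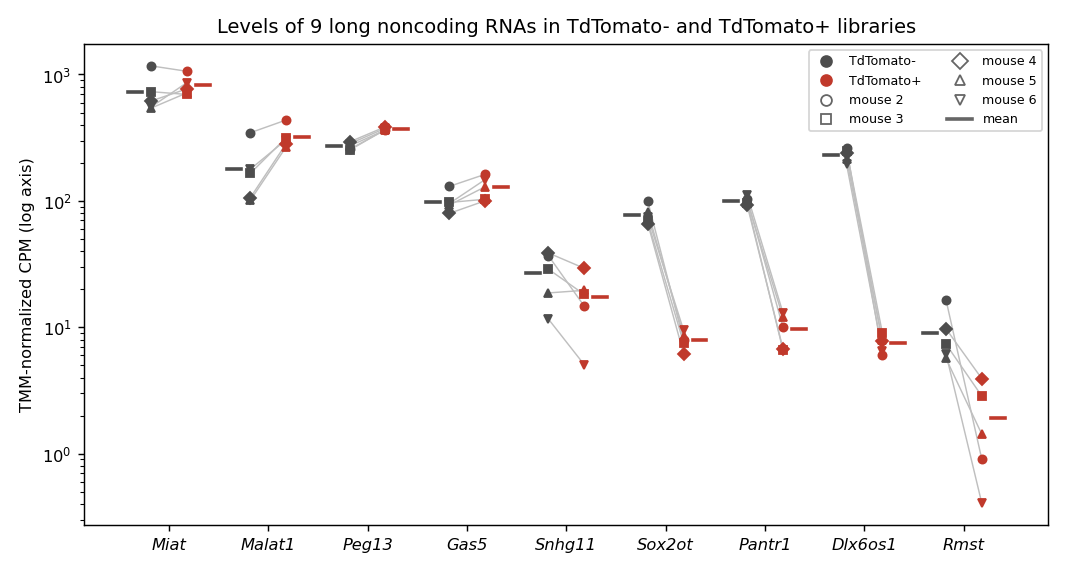
TMM-normalized CPM on a log axis are plotted for each of the 9 lncRNAs, with TdTomato- libraries in grey, TdTomato+ libraries in red, a line joining the pair of each mouse and a bar for the mean. The pairs of *Sox2ot*, *Pantr1* and *Dlx6os1* drop together from between 66.0 and 260 CPM to between 6.08 and 13.0 CPM, those of *Peg13* rise by a small even step, and those of *Rmst* and *Snhg11* spread widely.

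*Peg13* (chr15:72805600-72810324, minus strand) is an imprinted RNA expressed from the paternal allele and lies in an intron of *Trappc9*, with no exonic base shared with another gene. It was the only member called higher whose libraries did not overlap. The TdTomato+ values of 365, 368, 386, 364 and 376 CPM in mice 2 to 6 all lay above the TdTomato- values of 256, 252, 293, 272 and 283 CPM. Their spread was small beside the difference, and the log2 fold change was 0.46 (SE 0.04, edgeR adjusted p = 5.1e-06), with per-mouse ratios from 0.40 to 0.55. With library size as the sole scaling it was 0.28 (adjusted p = 9.9e-05).

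The protein-coding genes around *Peg13* did not share one direction. *Trappc9*, the host gene, which encodes a vesicle tethering subunit, was higher at a log2 fold change of 0.22 (SE 0.06, edgeR adjusted p = 0.0099). *Ago2*, the effector of small RNA silencing, was lower at −0.18 (SE 0.04, adjusted p = 0.0025), and *Chrac1*, a histone-fold subunit, was lower at −1.11 (SE 0.10, adjusted p = 1.1e-05). *Peg13* exceeded each of these 3 genes in log2 ratio in 5 of 5 mice, by means of 0.23, 0.63 and 1.56. An exact sign-flip test over 5 mice cannot give less than 0.0625, the p of each of these comparisons (two-sided, 0.0909 when adjusted over the 16 lncRNA and gene pairs examined).

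*Gas5* (chr1:161034422-161038539, plus strand), a snoRNA host that accumulates in growth-arrested cells, was higher in TdTomato+ cells in 5 of 5 mice. Its values were 162, 103, 100.0, 129 and 147 CPM in TdTomato+ cells and 130, 97.1, 79.5, 92.4 and 95.0 CPM in TdTomato- cells of mice 2 to 6. Mouse 2 was once more the highest on both sides, and its TdTomato- value lay above 3 TdTomato+ libraries. The log2 fold change was 0.37 (SE 0.07, edgeR adjusted p = 0.0012), and it was 0.19 (adjusted p = 0.038) with library size alone. GENCODE places 10 small RNA genes in *Gas5*, and 17.8% of its exonic bases are shared with genes of its own strand, so the count of the host is uncertain where reads fell on them.

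*Snhg11* (chr2:158375638-158386145, plus strand) hosts 2 snoRNA genes and was lower. TdTomato+ cells of mice 2 to 6 gave 14.7, 18.2, 29.3, 19.6 and 5.06 CPM, and TdTomato- cells gave 36.8, 28.8, 38.7, 18.7 and 11.6 CPM. Mouse 6 was lowest and mouse 4 highest in both populations, so the difference lay within mice and the groups overlapped. It was lower in 4 of 5 mice, with a log2 fold change of −0.67 (SE 0.18, edgeR adjusted p = 0.0072), and in mouse 5 the log2 ratio was 0.07. Without the mouse as a block the call was lost (−0.63, adjusted p = 0.17).

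Of 21 snoRNA host genes listed as noncoding, 15 are in the table, *Gas5* included, as well as *Snhg11*, which GENCODE M21 classes as protein coding, and 5 were higher, 6 lower and 4 not called, with a median log2 fold change of −0.03. Such counts are near the shares over all genes, 37.9% higher and 39.4% lower. *Snhg14*, the imprinted host that runs antisense to *Ube3a*, was highest at 1.63 (SE 0.15, edgeR adjusted p = 7.1e-06), followed by *Zfas1* at 0.60, and *Snhg12* (0.30) and *Snhg6* (0.17) were the others that were higher besides *Gas5*. *Snhg18* was lowest, at 0.59 ± 0.24 against 7.11 ± 0.79 CPM (−3.60, SE 0.19, adjusted p = 2e-07), and *Snhg8*, the other host with an oligopyrimidine start, was lower at −0.91 (SE 0.16). *Snhg17*, which lies near *Snhg11*, was not called at 0.02, nor were *Snhg1* (−0.03), *Snhg5* (−0.11) and *Epb41l4aos* (0.33, SE 0.15).

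A list of 8 genes for nonsense-mediated decay, which degrades spliced snoRNA hosts, and for the glucocorticoid receptor, to which *Gas5* binds, gave 2 higher, 4 lower and 2 not called. Over all genes the shares were 37.9% higher and 39.4% lower. *Upf3b* and *Smg1* were higher, at log2 fold changes of 0.54 and 0.44, and *Upf1*, the central helicase, was lower at −0.45 (SE 0.04, edgeR adjusted p = 6.1e-06), as were *Smg5* (−0.31) and *Smg6* (−0.19). The receptor gene *Nr3c1* was not called, at −0.22 (SE 0.20), nor was *Upf2*, at −0.10.

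*Dlx6os1* (chr6:6820189-6871592, minus strand) is transcribed across *Dlx6* from the opposite strand and shares no exon with it, and its RNA has been studied in the making of GABAergic interneurons. It was 31.0-fold lower in TdTomato+ cells. The TdTomato+ libraries of mice 2 to 6 held 6.08, 9.02, 7.73, 7.91 and 6.55 CPM, and the TdTomato- libraries held 260, 249, 241, 213 and 194 CPM. No TdTomato+ library came near a TdTomato- library, and the log2 fold change was −4.95 (SE 0.09, edgeR adjusted p = 1.5e-09), with lower values in 161 of 14300 genes and in 7 of 907 lncRNA genes. The 8 subpallial GABAergic markers moved the same way, as given above, and their part in this result was not tested.

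Its neighbours moved by similar amounts. *Dlx5* fell from 113 ± 11.1 to 3.54 ± 0.72 CPM (−5.00, SE 0.09, edgeR adjusted p = 1.5e-09) and *Dlx6* from 33.9 ± 4.37 to 1.55 ± 0.37 CPM (−4.44, SE 0.12, adjusted p = 4.9e-09). The log2 ratio of *Dlx6os1* minus that of *Dlx5* averaged 0.04 and ran from −0.11 to 0.21 over the 5 mice (exact sign-flip p = 0.5625, adjusted 0.562), whereas against *Dlx6* it was below 0 in 5 of 5 mice, with a mean of −0.55. Inside the *Dlx6os1* body, *Dlx6os2* was called lower, with 0 to 3 counts in TdTomato+ and 26 to 45 in TdTomato- libraries (edgeR adjusted p = 1.4e-05). It passed the filter of 0.5 CPM in at least 5 libraries only through the TdTomato- libraries. Its direction was therefore fixed by the filter and adds nothing to the result for the locus. *Sem1*, the next protein-coding gene toward lower coordinates, at 242 kb, was lower by far less, at −0.66 (SE 0.04, adjusted p = 6e-07).

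*Sox2ot* (chr3:34104270-34682619, plus strand) spans the single-exon gene *Sox2*, the progenitor transcription factor, on the same strand and without sharing exons with it. It stood at 7.89, 7.50, 6.18, 8.61 and 9.45 CPM in TdTomato+ and at 99, 68.7, 66.0, 81.8 and 74.5 CPM in TdTomato- cells of mice 2 to 6. The groups lay far apart, and the log2 fold change was −3.29 (SE 0.09, edgeR adjusted p = 5e-09). *Sox2* fell further, from 238 ± 20.6 to 6.44 ± 2.04 CPM (−5.22, SE 0.18, adjusted p = 1.7e-08), and the log2 ratio of *Sox2ot* exceeded that of *Sox2* in 5 of 5 mice, by 1.74 to 2.74 (exact sign-flip p = 0.0625). *Gm42692*, a transcript of uncertain status within the span, was lower at −3.23 (SE 0.16), and *Dnajc19*, the nearest protein-coding gene before *Sox2ot*, at 22.9 kb, was not called (0.12, SE 0.07). The 9 radial glia markers moved with *Sox2ot*, and their part was not tested.

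*Pantr1* (chr1:42590782-42694842, minus strand) starts 926 bases from *Pou3f3*, which encodes a POU-domain factor of cortical neurons and their progenitors, and runs away from it on the other strand. Its TdTomato+ libraries gave 10, 6.59, 6.75, 12.0 and 13.0 CPM and its TdTomato- libraries 103, 96.5, 92.3, 99.7 and 111 CPM. Every TdTomato- library was above every TdTomato+ library, with a log2 fold change of −3.41 (SE 0.13, edgeR adjusted p = 2.1e-08). *Pou3f3* fell less and with more spread among mice, from 675 ± 38.8 to 157 ± 68.9 CPM (−2.22, SE 0.21, adjusted p = 9.3e-06), and the log2 ratio of *Pantr1* was the lower of the pair in 5 of 5 mice, by 1.19 on average (exact sign-flip p = 0.0625). *Pantr2*, a lncRNA past the other end of *Pou3f3*, was lower at −3.99 (SE 0.31), with 2 to 12 counts per TdTomato+ library against 106 to 159. The per-mouse log2 ratios of both genes were lowest in mice 3 and 4, at −3.86 and −3.76 for *Pantr1* and −2.90 and −2.93 for *Pou3f3*.

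*Rmst* (chr10:92071037-92165170, minus strand), whose RNA binds SOX2 in neural progenitors, was the scarcest member, and its log2 ratios varied most among the mice. TdTomato+ libraries of mice 2 to 6 held 20, 66, 89, 33 and 9 counts (0.907, 2.86, 3.93, 1.43 and 0.407 CPM), and TdTomato- libraries held 422, 213, 243, 143 and 177 counts (16.5, 7.36, 9.74, 5.67 and 6.17 CPM). The groups did not overlap, but the per-mouse log2 ratio ran from −4.07 in mouse 2 to −1.29 in mouse 4. The log2 fold change was −2.30 (SE 0.41, edgeR adjusted p = 0.00068), and without mouse 2 it was −1.88, so that *Rmst* was then no DEG. Genes on the other strand share 26.3% of its exonic bases and genes on its own strand 12.5%.

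Of the small RNA genes within *Rmst*, *Mir135a-2* and *Gm27544* were examined, and both were lower. *Mir135a-2*, the source of the mature forms printed above, had 1 to 4 counts in TdTomato+ and 17 to 34 counts in TdTomato- libraries (−3.11, SE 0.37, edgeR adjusted p = 4.9e-05), and such reads come from longer transcripts, since libraries of this kind hold no mature miRNA. *Gm27544* had 0 to 6 against 21 to 36 counts. Both small genes were below 0.5 CPM in every TdTomato+ library and above it in every TdTomato- library. Genes entered the table at 0.5 CPM in at least 5 libraries, so the filter fixed that direction and it adds nothing to the result for *Rmst*. *Nedd1*, a centrosome gene 520 kb away and the listed protein-coding neighbour, was lower at −2.88 (SE 0.09, adjusted p = 9.9e-09), and the log2 ratios of *Rmst* lay below those of *Nedd1* in 2 mice and above them in 3.

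**Figure D3:**
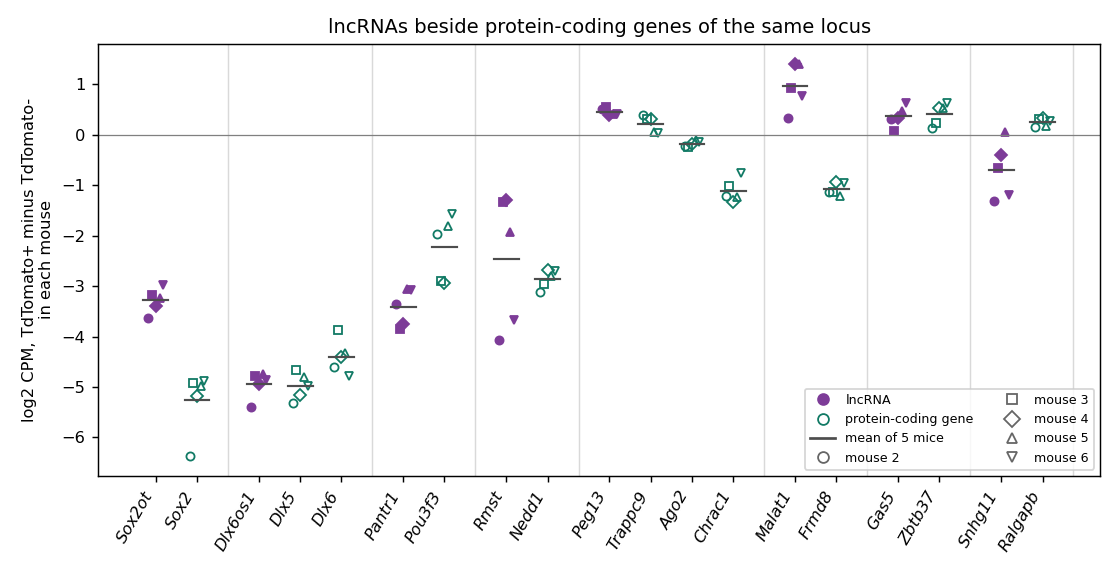
The difference in log2 CPM between the TdTomato+ and TdTomato- library of each mouse is plotted for 8 lncRNAs (filled) and protein-coding genes of the same locus (open), with a bar for the mean of 5 mice. *Dlx6os1* and *Dlx5* lie at the same height near −5, *Sox2* lies below *Sox2ot*, *Pantr1* lies below *Pou3f3*, and *Malat1* lies above *Frmd8*.

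Genes beside the remaining members moved in other ways. *Frmd8*, 47.0 kb from *Malat1*, was lower (−1.08, SE 0.07, edgeR adjusted p = 6.5e-07), and the log2 ratio of *Malat1* exceeded that of *Frmd8* in 5 of 5 mice, by 2.05 on average. *Zbtb37*, which overlaps the start of *Gas5* on the opposite strand, was higher at 0.41 (SE 0.08, adjusted p = 0.00086), and the log2 ratios of *Gas5* and *Zbtb37* differed by −0.05 on average (exact sign-flip p = 0.4375, adjusted 0.5, with a range of −0.20 to 0.17). *Ralgapb*, 23.7 kb from *Snhg11*, was higher at 0.25 (SE 0.04, adjusted p = 0.00056), while *Snhg11* was lower. *Tpst2*, 47.3 kb from *Miat*, was not called (−0.18, SE 0.08). Over the 16 pairs examined, 11 reached 0.0625 in the exact test, the least that 5 mice allow, and none could pass 0.05.

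A second list held 38 other named lncRNAs, 26 of them in the table, and 10 were higher, 14 lower and 2, *Jpx* and *1810026B05Rik*, not called, with a median log2 fold change of −0.55. The highest were *Airn* (1.40, SE 0.29, edgeR adjusted p = 0.0019), *Meg3* (1.33, SE 0.11, adjusted p = 5.6e-06) and *Kcnq1ot1* (1.13, SE 0.14, adjusted p = 5.2e-05). *Airn* and *Kcnq1ot1* run antisense to protein-coding genes, where reads can be shared if strand was not used in counting. The lowest were *Dlx1as* (−4.77, SE 0.10, adjusted p = 1.7e-09), antisense to *Dlx1*, *Six3os1* (−4.40, SE 0.28, adjusted p = 6.3e-07), beside *Six3*, and *Pantr2*. In this list 7 genes were DEGs, all of them lower. Among all lncRNA genes 43.8% were called higher and 26.6% lower, and 6.39% and 10.3% were DEGs.

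**Figure D4:**
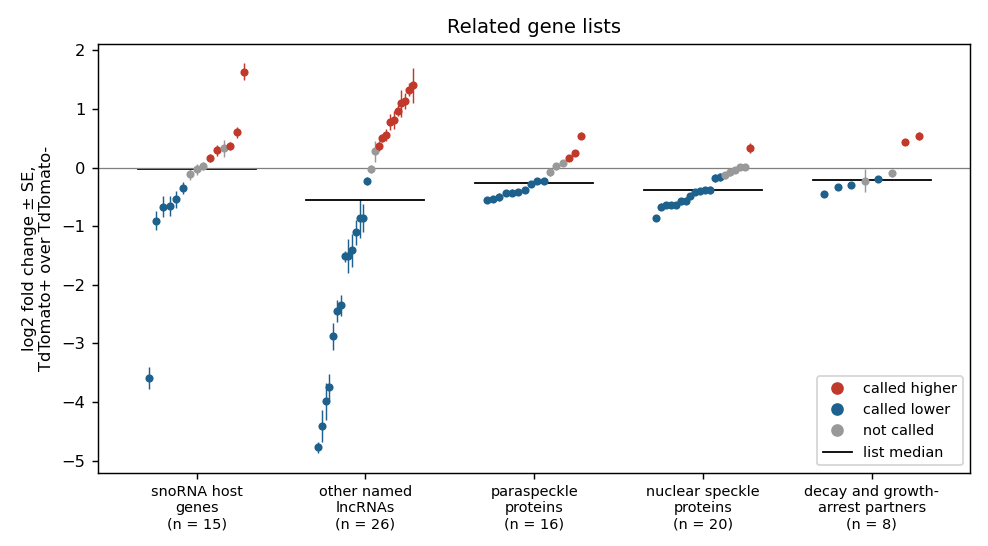
The log2 fold change with its SE is plotted for each gene of 5 lists, coloured by its call, with a line for the list median. Values of the lncRNA lists run from −4.77 to 1.63, while those of the speckle, paraspeckle and decay lists stay between −0.86 and 0.54.

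Levels were compared between members only per kb of exon. In TdTomato+ cells *Miat* (88.1 ± 15.8 CPM per kb) and *Peg13* (78.7 ± 1.90) came first and overlapped, followed by *Malat1* (46.0 ± 9.58) and *Gas5* (34.1 ± 7.17), which also overlapped. A wide step led down to *Pantr1* (2.17), *Snhg11* (2.04) and *Dlx6os1* (1.44), each overlapping the next, and then to *Sox2ot* (0.68), whose range that of *Snhg11* also reached, and *Rmst* (0.26). In TdTomato- cells *Miat* (77.6 ± 27.9) and *Peg13* (57.4 ± 3.69) again overlapped at the top. *Dlx6os1* came next at 44.8 ± 5.23, followed by *Gas5* (26.3), *Malat1* (25.7) and *Pantr1* (22.5), which overlapped in that order. The range of *Malat1*, 14.4 to 49.5, also overlapped that of *Dlx6os1*, 37.5 to 50.2. Then *Sox2ot* (6.73), *Snhg11* (3.16) and *Rmst* (1.22) followed. With the longest transcript as the length, *Sox2ot* was at 2.27 and 22.4 CPM per kb in the TdTomato+ and TdTomato- populations, *Pantr1* at 4.64 and 48.2, *Rmst* at 0.66 and 3.14, and *Gas5* at 50.1 and 38.7. *Gas5* then stood above *Malat1* in both populations and *Pantr1* above both in TdTomato- cells, so the order of these members depends on the length used.

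The genes whose pattern over the 10 libraries came nearest to each member were found by the root mean square (RMS) difference of centred log2 CPM, among genes with a mean log2 CPM of 3 or more. All libraries share the 2 populations and the 5 mice, so likeness here includes a like difference between populations. The closest match of all was *Gdap1l1* for *Peg13* (0.03), followed for the same member by *Scg3*, a secretory granule gene (0.04). *Zeb1*, a progenitor zinc-finger factor, was nearest to *Sox2ot* (0.11), with the replication gene *Cdc45* second (0.16). *Prc1*, a spindle midzone gene, and *Dlx1* were nearest to *Dlx6os1* (0.16 and 0.17), and *Tns1* and *Nek6* to *Pantr1* (0.16 and 0.17). *Slc25a27* and *A930004J17Rik* were nearest to *Miat* (0.12 and 0.13), *Plekhn1* and *Ccnl2* to *Gas5* (both 0.11), and the immediate early gene *Junb* and *Il18bp* to *Malat1* (0.24 and 0.25). For *Rmst* and *Snhg11* the smallest differences were larger, at 0.46 for *Ecel1* and 0.48 for *Trank1*. The RMS difference is not scaled to a gene's own spread, so it does not rank likeness between members. The SD of log2 CPM in TdTomato+ libraries was 1.22 for *Rmst*, 0.94 for *Snhg11* and 0.035 for *Peg13*.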

How the data were processed

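RNA of sorted TdTomato+ and TdTomato- cells of mice 2 to 6 was sequenced, at 14.5 dpc after tamoxifen at 13.5 dpc. The authors trimmed and aligned reads (STAR 2.4.2a, GRCm38 and edgeR 3.28.0 are named in the submitters' processing notes), kept unique alignments and deposited raw counts per gene identifier. The annotation release and strand column of these counts are not given in the sources used here. The sample labels name a stranded poly(A) kit, while the methods of the study name another kit and sequencer. Of 486 genes whose exons are at least 99% covered by exons of the other strand alone, 42 are in the table, against 4 of 755 covered on their own strand. Every gene in the table had passed 0.5 CPM in at least 5 libraries. A gene below that level in all TdTomato+ libraries is in the table only through the TdTomato- libraries, so its lower level was fixed by this filter.

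Symbols and coordinates came from GENCODE M21, which left 29 identifiers without a symbol, and promoters and miRNAs from RefSeq (GRCm38.p6), with promoters for 5 of the 9 members. Counts were tested with edgeR 4.0.16 in R 4.3.3 (TMM, glmQLFit and glmQLFTest, mouse as a block), with thresholds of 0.05 on adjusted p and 2 on absolute log2 fold change. Each number is 1 mouse with both populations, and the deviations of its 2 libraries from their group means correlated at 0.303, 0.268, 0.281, 0.186 and 0.316 for mice 2 to 6. Log2 CPM used a prior count of 2. An exact sign-flip test compared each lncRNA with genes of its locus in log2 ratio. Totals were 23429034 to 27286180 counts, and libraries of 1 population differed beyond sampling noise (chi-square per degree of freedom 4.53 to 32.76), so none was counted as a repeat.

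The members, gene lists and tests were chosen with earlier results of these data known. The genes named are every member, listed and nearest protein-coding neighbours within 500 kb, the 3 highest and 3 lowest of each list with those needed for small counts, and the 2 genes nearest in pattern. A few further genes within it are left unreported. *Nono*, *Sfpq* and the small genes inside or beside members were named after their values were seen. On simulated counts with 200 changed genes, 50 of 50 with a planted log2 change of −3, 46 of 50 of −1, 48 of 50 of 1 and 50 of 50 of 3 were called, and 7 of 14098 unchanged genes were. The simulation had no mouse effect and changed as many genes up as down. The data had 1393 DEGs lower and 457 higher, so scaling under such an imbalance was not tested. The alternatives were RLE, upper-quartile and library-size scaling, no count filter, a 1 CPM filter in 5 libraries, DESeq2 1.42.0, no mouse block, TREAT, a prior count of 0.5, another length, and each mouse left out.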

Additional observations from a re-analysis of the deposited data

Results flagged for a closer look

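In each set of 5 values of a member or neighbouring gene, the gap between the most extreme value and the nearest other was divided by the range, and 5 of 75 sets exceeded the critical ratio of 0.71, where chance alone gives about 1 set in 20, or 3.75. None of the 5 was a member. *Sox2* was low in the TdTomato+ library of mouse 2 (gap ratio 0.829, log2 CPM 1.58 against 2.78 to 3.03), and its log2 ratio in that mouse was −6.38 against −5.18 to −4.89 in the others (gap ratio 0.806). *Sem1* stood apart in the log2 ratio of mouse 3 (gap ratio 0.776, −0.60 against −0.66 to −0.68). In TdTomato+ cells of mouse 5, *Zbtb37* (0.785) and *Rc3h1* (0.826), neighbours on the same chromosome, were both above the other mice.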

How the results depend on the processing

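All 9 members kept their direction under every alternative that was run, and 8 called members stayed 7 to 9. *Miat* became called with DESeq2 and without mouse 2 or mouse 3, and was not called under the other alternatives. The 4 members that were DEGs stayed 4, except without mouse 2 and under TREAT, which tests the absolute log2 fold change against 2 and kept *Sox2ot*, *Dlx6os1* and *Pantr1*, where they were 3. Leaving out each mouse gave log2 fold changes of −2.64 to −1.88 for *Rmst*, −0.86 to −0.50 for *Snhg11*, 0.86 to 1.13 for *Malat1*, 0.31 to 0.44 for *Gas5* and 0.13 to 0.32 for *Miat*. In the fit without the replicate block, 10674 genes were called in place of 11056, *Snhg11* was no longer called, and no other member changed its call. With library size alone the median log2 fold change of all genes moved from −0.006 to −0.18 and the share of calls that were higher from 49.1% to 36.6%. *Gas5* and *Peg13* stayed called, at 0.19 and 0.28. The filter of 1 CPM gave 1588 DEGs and TREAT 1350, in place of 1850. Of 126 levels per kb recomputed, 11 moved by more than the SD, 10 of them with the longest transcript as length. Depth limited *Rmst*, with as few as 9 counts in a TdTomato+ library, and the small genes within or beside members, where those libraries held 0 to 6 counts of *Gm27544*, 1 to 4 of *Mir135a-2*, 0 to 3 of *Dlx6os2* and 2 to 12 of *Pantr2*.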

Other observations

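The highest of the 5 TdTomato- libraries was that of mouse 2 for 6 of the 9 members (*Miat*, *Malat1*, *Gas5*, *Sox2ot*, *Dlx6os1* and *Rmst*), where 26.3% of all genes had their highest value in that library. Among TdTomato+ libraries mouse 2 was highest for 3 members, *Miat*, *Malat1* and *Gas5*, beside 23.6% of all genes. That TdTomato- library also had the highest summed microglial markers (55.6 CPM), the highest GABAergic markers (2020 CPM) and the lowest deep-layer markers (1240 CPM) of the 5, and the part of these in the member values was not tested. This pattern was noticed after the values had been seen.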
